A study of Margaritifera margaritifera with 32 samples.

Results

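CATL1 and ppt2 are the contigs named for cathepsin L1 and for palmitoyl-protein thioesterase 2, a pair of lysosomal enzymes, measured in the kidney of the freshwater pearl mussel (Margaritifera margaritifera). They were found by contig name, ignoring case and trailing numbers, and each name matched a single contig, which gives 2 of the 51392 contigs in the table. Both were picked out with their site differences already known, CATL1 as higher and ppt2 as lower downstream, so differences between the sites are given below as description and without a test. The names come with the table, and which protein each contig encodes was not tested.

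Lysosomes are acidic compartments in which cells break down proteins, lipids and sugars taken up from outside or delivered by autophagy. Cathepsin L is a cysteine protease of that compartment in animals, and in molluscs it is known from digestive cells and haemocytes, the circulating immune cells. Palmitoyl-protein thioesterases remove fatty acids from cysteine residues. In mammals PPT1 acts on proteins delivered to the lysosome, and PPT2 is a related lysosomal enzyme with another substrate preference. Bivalve kidney is an excretory tissue rich in lysosome-derived granules that store metals.

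The animals were wild mussels of the Dronne River, France, taken below or above a dump, and by its title the study concerns contamination with trace metals. Each of the 4 groups held 8 animals with 1 library each. The downstream group of 2010 held 3 young, 3 middle-aged and 2 old animals, and the upstream group of 2010 held 4, 3 and 1. The downstream group of 2009 held 1 middle-aged and 7 old animals and 0 young ones, and the upstream group of 2009 held 3 young, 4 middle-aged and 1 old animal. No treatment is given in the labels.

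Libraries held 55723097 to 190000447 counted reads, with a median of 77462030. Levels are CPM, counts scaled to a common library size, after TMM scaling, a correction for a few abundant transcripts taking a large share of reads. Downstream 2009 replicates 7 and 8 had the lowest scaling factors, 0.503 and 0.5245, with upstream 2009 replicate 4 next at 0.6008. Many results that rest on replicates 7 and 8 are given with and without them, and the others with all libraries. No marker set of bivalve kidney was available to check the tissue. CUBN and LRP2, named for endocytic receptors of the vertebrate kidney tubule, summed to 1.77 to 60 CPM over the libraries. Names fixed for digestive gland and gonad matched 0 contigs. The number of reads of CATL1 was 238 (exact 95% Poisson interval 209 to 270.2) in its lowest library and 3531 in its highest, with a median of 962. For ppt2 it was 20 (12.2 to 30.9) to 270 reads, with a median of 51. These intervals cover counting error only.

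CATL1, the protease, was lowest at 4.47 CPM downstream in 2010, with a median of 9.31 CPM and a highest value of 22.6 CPM. Upstream in 2010 it had 3.04 CPM at the lowest, 7.02 CPM at the median and 19.2 CPM at the highest. Downstream in 2009 the lowest, median and highest values were 7.79, 14.8 and 97.1 CPM. Upstream in 2009 they were 4.86, 11.6 and 16.5 CPM. All 4 groups overlapped, and the downstream animals of 2009 were spread over the widest range. Within that group 3 old animals, replicates 7, 8 and 6, had 97.1, 45.9 and 32.8 CPM, while the other 5 lay between 7.79 and 17.45 CPM. Those 3 animals had the highest CATL1 levels of all 32. They also had the highest summed levels of the haemocyte-list contigs described further on, 476, 788 and 368 CPM, whose part in the CATL1 levels was not tested. In bulk tissue, more cells of a type and more RNA per cell cannot be told apart.

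The thioesterase ppt2 lay at a low level in every animal, and its groups lay close together. It had 0.282 CPM at the lowest, 0.593 CPM at the median and 0.753 CPM at the highest downstream in 2010. Upstream in 2010 these values were 0.419, 0.609 and 1.15 CPM. Downstream in 2009 they were 0.399, 0.544 and 0.783 CPM, and upstream in 2009 they were 0.402, 0.644 and 1.57 CPM. The 4 highest animals were all upstream ones: upstream 2009 replicates 6, 4 and 3, at 1.57, 1.33 and 1.33 CPM, and upstream 2010 replicate 4, at 1.15 CPM. The fitted biological coefficient of variation was 36.6% for ppt2 and 62.7% for CATL1.

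**Figure D1:**
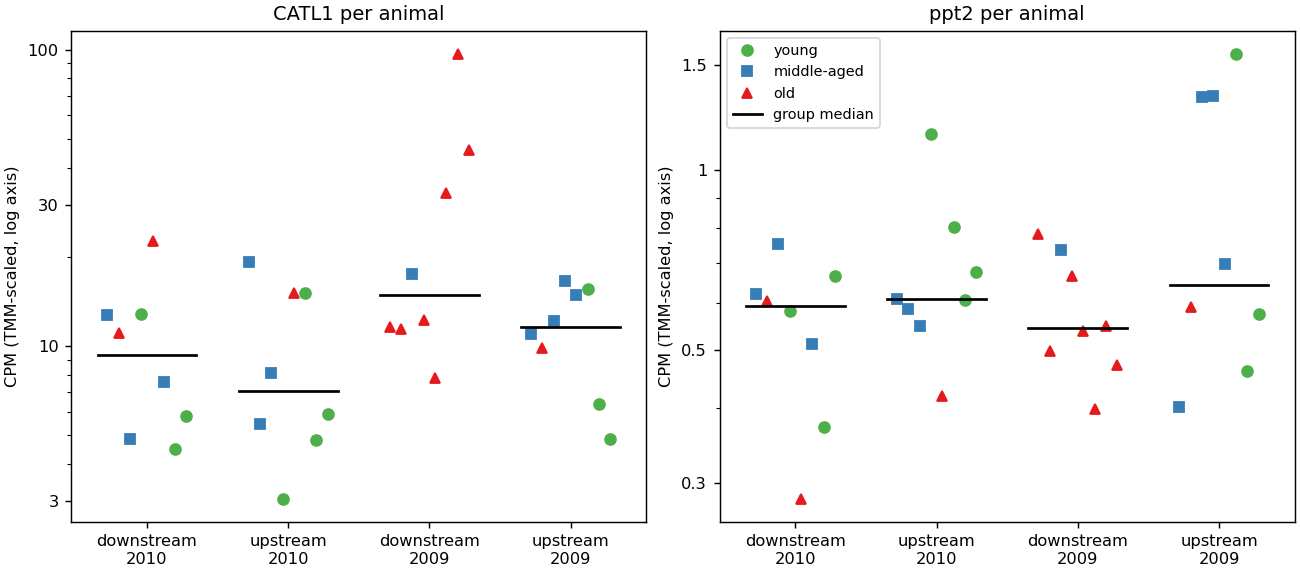
CPM (log axis) of CATL1 (left) and ppt2 (right) in each of the 32 animals by site and year, with colour and symbol for age class and a bar for the group median. After TMM scaling CATL1 reaches 32.8 to 97.1 CPM in 3 old downstream animals of 2009, and ppt2 exceeds 1 CPM only in 4 upstream animals.

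Between the sites, CATL1 and ppt2 differed in opposite directions in 2009. In 2010 the difference of CATL1 was well within its error and that of ppt2 close to it. In 2009 CATL1 averaged 29.5 ± 30.3 CPM downstream and 11.4 ± 4.26 CPM upstream (SD, n = 8 each), a log2 difference of 1.37 ± 0.466 (SE). The medians, 14.8 and 11.6 CPM, lay closer than the means. Of the 8 downstream animals 6 lay above the upstream median and 4 above the highest upstream animal, in a comparison in which edgeR called 0% of all contigs, limma-voom 0 and DESeq2 49, and 4277 had an unadjusted p under 0.05 in edgeR. The difference was 0.41 in limma-voom with sample weights, 0.82 without downstream 2009 replicate 7, and 0.46 without replicates 7 and 8 together. With age class in the model it was 0.76 ± 0.583. In 2009, 7 downstream animals and 1 upstream animal were old, and 0 downstream animals were young. Site and age class can therefore hardly be told apart in that year. In 2010 edgeR called 0.164% of all contigs between the sites, DESeq2 1.47% and limma-voom 29%. CATL1 then averaged 10.2 ± 6.04 CPM downstream and 9.60 ± 6.00 CPM upstream, a log2 difference of 0.09 ± 0.458. It was -0.18 without downstream 2010 replicate 5, the highest animal of that group, -0.05 with age class in the model and -0.03 in limma-voom.

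For ppt2 the 2009 averages were 0.581 ± 0.134 CPM downstream and 0.869 ± 0.461 CPM upstream, a log2 difference of -0.58 ± 0.272. It was -0.18 ± 0.33 with age class in the model, which can hardly be told apart from site in that year. In 2010 ppt2 averaged 0.549 ± 0.155 CPM downstream and 0.675 ± 0.22 CPM upstream, a difference of -0.29 ± 0.27. It was -0.14 without upstream 2010 replicate 4. Over both years the site difference was 0.73 ± 0.325 for CATL1 and -0.44 ± 0.192 for ppt2. With age class in the model it was 0.35 ± 0.385 for CATL1 and -0.19 ± 0.222 for ppt2. For CATL1 it was 0.45 without downstream 2009 replicate 7, 0.27 without replicates 7 and 8 together and 0.19 in limma-voom. Without the old animals it was 0.22 for CATL1 and -0.30 for ppt2, with a single animal left downstream in 2009. edgeR called 0% of the 51264 contigs tested for the site difference over both years, limma-voom called 0 and DESeq2 227, and 6429 had an unadjusted p under 0.05 in edgeR. Nothing is read from that share about the pair, which was chosen on this contrast.

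**Figure D2:**
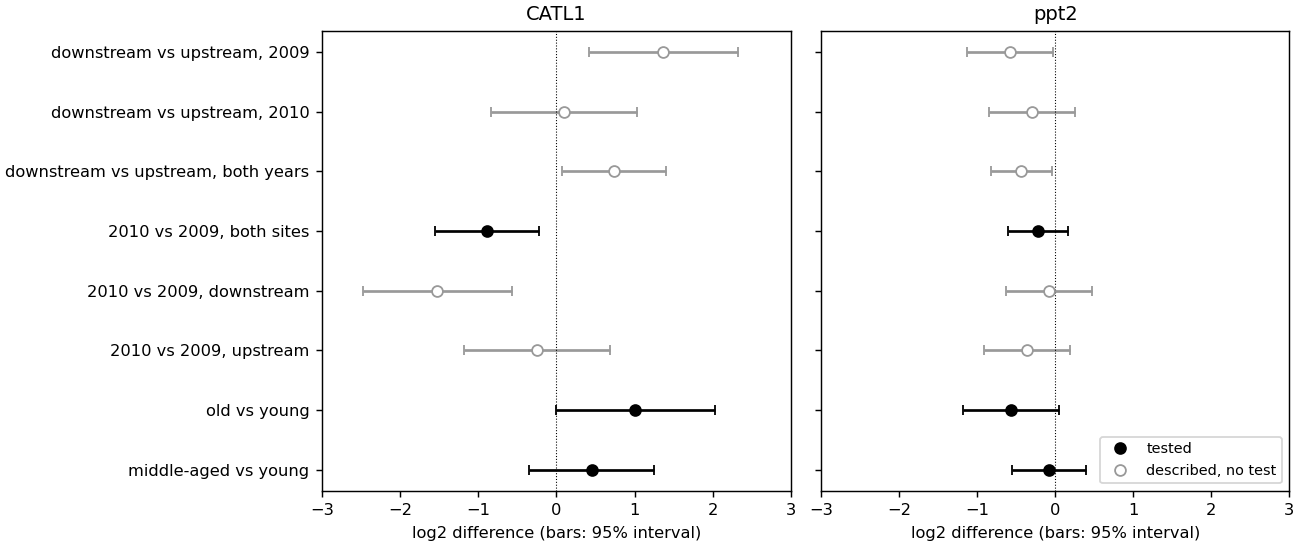
Log2 differences of CATL1 (left) and ppt2 (right) with bars of the 95% interval, for 8 comparisons. Filled points were tested and open points are described only; the year difference of CATL1 over both sites is the filled point whose bar lies below 0 throughout.

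The year comparison over both sites is balanced across the sites and was tested. It is not independent of the choice of the pair, because the same high animals of 2009 enter the site and the year differences. For ppt2 these are upstream animals and for CATL1 downstream ones. Without downstream 2009 replicates 7 and 8 the site difference of CATL1 over both years was 0.27, against 0.73 with them. The year difference was then -0.44, against -0.89. CATL1 was lower in 2010: it averaged 9.92 ± 5.83 CPM in 2010 and 20.5 ± 22.9 CPM in 2009 (SD, n = 16 each). Of the 16 animals of 2010, 6 lay above the median of 2009, 12.2 CPM, while 13 of 16 animals of 2009 lay above the median of 2010, 7.835 CPM. The log2 difference was -0.89 ± 0.326, with an adjusted p of 0.0346 by edgeR's quasi-likelihood test with Benjamini-Hochberg adjustment. In that comparison 34% of all contigs were called, 18.3% of all contigs as lower in 2010, and 30.3% had a smaller p than CATL1. Against that background the call is no result about CATL1 in particular.

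The year difference of CATL1 was uneven between the sites, at -1.53 ± 0.468 downstream and -0.25 ± 0.458 upstream, values that share libraries with the site differences and were not tested. Without downstream 2009 replicates 7 and 8 the downstream value was -0.63 ± 0.411 and the upstream one -0.25 ± 0.384, so the unevenness rests largely on those libraries. In limma-voom the values were -1.12 downstream and -0.68 upstream. Over both sites the difference was no longer called without downstream 2009 replicate 7 (-0.61, adjusted p = 0.107), without replicates 7 and 8 together (-0.44, adjusted p = 0.243) or with age class in the model (-0.65, adjusted p = 0.169). The adjusted p was also 0.0505 to 0.0547 without each of 9 other animals: upstream 2009 replicate 4, downstream 2009 replicate 8, upstream 2010 replicates 2, 4 and 7, and downstream 2010 replicates 3, 6, 7 and 8. With total counts in place of TMM factors the difference was -0.28 (adjusted p = 0.458), where the median of all contigs stood at 0.40, so that CATL1 lay at -0.68 relative to it.

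The thioesterase ppt2 averaged 0.612 ± 0.195 CPM in 2010 and 0.725 ± 0.36 CPM in 2009 (SD, n = 16 each). The log2 difference was -0.22 ± 0.191, with a 95% interval of -0.61 to 0.17, and edgeR gave an adjusted p of 0.392. It was 0.21 with total counts alone, or -0.20 relative to the median of all contigs in that fit. By site it was -0.08 ± 0.271 downstream and -0.36 ± 0.27 upstream. Without upstream 2009 replicate 6, the animal highest in ppt2, the year difference over both sites was -0.13. The site difference of ppt2 over both years was then -0.34, against -0.44 with that animal.

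Age class was compared in a model that also held the 4 groups. CATL1 averaged 7.88 ± 4.71 CPM in 10 young animals, 11.8 ± 4.91 CPM in 11 middle-aged ones and 25.2 ± 26.5 CPM in 11 old ones (SD). The medians were 5.87, 12.1 and 12.2 CPM. All 11 old animals lay above the median of the young ones, and 4 lay above the highest young animal. The order of the medians differed by group. Upstream in 2010 it was 5.37 CPM in 4 young, 8.14 CPM in 3 middle-aged and 15.1 CPM in the 1 old animal. Downstream in 2010 it was 5.825 CPM in 3 young, 7.53 CPM in 3 middle-aged and 16.85 CPM in 2 old animals. Upstream in 2009 the 1 old animal, at 9.86 CPM, lay between the young median of 6.37 CPM and the middle-aged median of 13.5 CPM. Downstream in 2009 the 1 middle-aged animal had 17.45 CPM and the 7 old ones a median of 12.2 CPM, and the 4 old animals of the other groups ranged from 9.86 to 22.6 CPM.

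Within groups, the log2 difference of CATL1 between old and young animals was 1.01 ± 0.497, with a 95% interval of -0.00674 to 2.03 and an adjusted p of 0.215 by edgeR (unadjusted 0.0514). That comparison called 2.45% of all contigs, 0.382% as lower. CATL1 passed in limma-voom with sample weights (1.095, adjusted p = 0.0339). In the other alternatives, apart from leaving out single libraries, its adjusted p was 0.109 to 0.246. Leaving out each library gave 0.76 to 1.23, with an adjusted p of 0.152 to 0.61 by edgeR. Without downstream 2009 replicates 7 and 8 together the difference was 0.85, with an adjusted p of 0.156. Without the downstream group of 2009 the difference was 0.95, with an adjusted p of 0.109. The difference between middle-aged and young animals was 0.45 ± 0.393 (-0.352 to 1.25, adjusted p = 0.628 by edgeR), in a comparison that called 0.0039% of contigs. It was 0.89 with sequencing lane in the model.

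Lane and age class were not independent. Of the 10 young animals 6 were sequenced in lane 2, and their CATL1 levels lay between 4.47 and 6.37 CPM. The 2 young animals of lane 1 had 15.6 and 15.1 CPM, and the 2 of lane 4 had 12.8 and 3.04 CPM. The 2 old animals of lane 2 were downstream 2009 replicates 7 and 8. With lane in the model the difference between old and young animals was 1.096 ± 0.56 for CATL1.

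For ppt2 the means over all groups lay in the other order: it averaged 0.746 ± 0.357 CPM in young, 0.739 ± 0.308 CPM in middle-aged and 0.528 ± 0.137 CPM in old animals (SD). In the same order of age, the medians upstream in 2010 were 0.739, 0.586 and 0.419 CPM. Downstream in 2010 they were 0.581, 0.621 and 0.443 CPM, and upstream in 2009 they were 0.575, 1.01 and 0.59 CPM. Downstream in 2009 the 1 middle-aged animal had 0.737 CPM and the 7 old ones a median of 0.539 CPM. The order thus differed by group. Of the 11 old animals 2 lay above the median of the young ones, 0.637 CPM, and 8 of 10 young animals lay above the median of the old ones, 0.539 CPM. The log2 difference between old and young animals was -0.57 ± 0.302 (-1.18 to 0.0524), with an adjusted p of 0.249 by edgeR. Between middle-aged and young animals it was -0.08 ± 0.233 (-0.553 to 0.401, adjusted p = 0.90). It turned to 0.10 without upstream 2009 replicate 6 and to 0.01 without upstream 2010 replicate 4, both young animals with high ppt2.

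**Figure D3:**
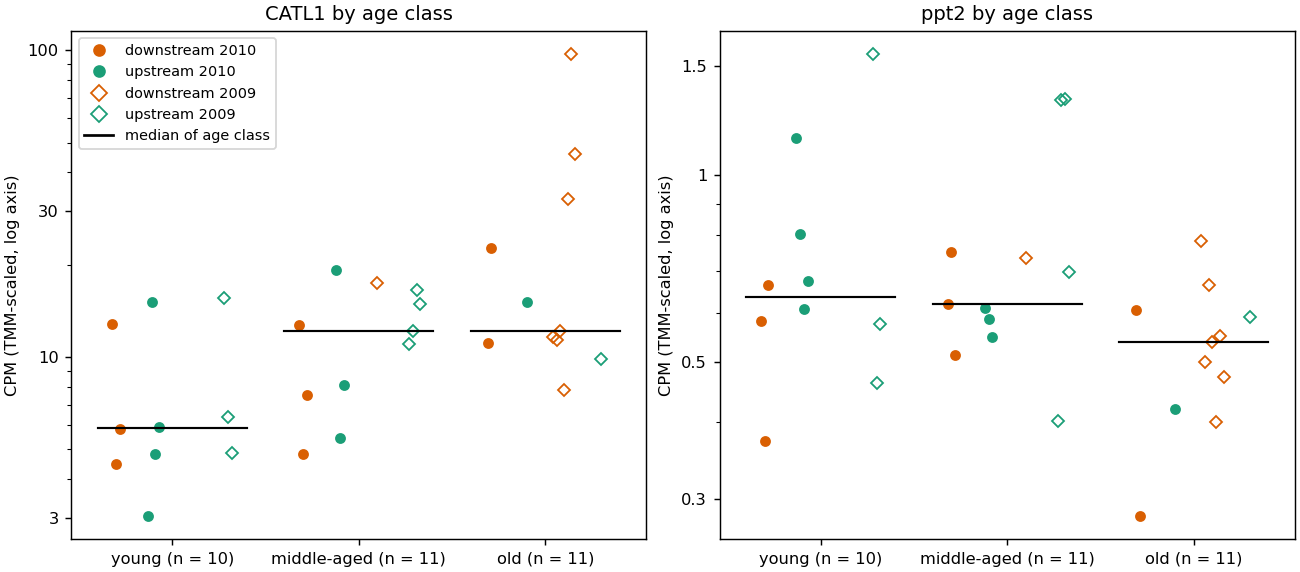
CPM (log axis) of CATL1 (left) and ppt2 (right) by age class, with symbols for site and year and a bar for the median of the class. The median of CATL1 is 5.87, 12.1 and 12.2 CPM in young, middle-aged and old animals, and that of ppt2 is 0.637, 0.621 and 0.539 CPM.

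Across the 32 animals the levels of CATL1 and ppt2 showed little relation to each other. Pearson's r of their log2 CPM was -0.127 and Spearman's rho was -0.029. After the group means were subtracted, r was -0.108. Without downstream 2009 replicates 7 and 8, which are also the 2 animals farthest from the median of CATL1, r was -0.0585. These are descriptions over libraries that share 1 scaling method.

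CATL1 moved with the names fixed for haemocytes. The list held 7 contigs: 5 named for lysozymes, which are themselves lysosomal or secreted antibacterial enzymes, AIF1 and PXDN. Its summed level ranged from 18.9 to 151 CPM downstream in 2010, with a median of 39.8 CPM, and from 18.8 to 100 CPM upstream in 2010, with a median of 33.5 CPM. It ranged from 41.6 to 788 CPM downstream in 2009 (median 87.6 CPM) and from 17 to 195 CPM upstream in 2009 (median 57.7 CPM). Over the 32 libraries r with CATL1 was 0.859 and rho 0.811. It was 0.809 within groups and 0.792 without downstream 2009 replicates 7 and 8.

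The lysozyme contigs made up nearly all of that sum. LYS1.2.3 (mean 58.9 CPM) had an r of 0.856 with CATL1 and LYS.2.2 (28.2 CPM) one of 0.799. AIF1, named for a factor of immune cells in animals, had a mean of 1.86 CPM and an r of 0.536, or 0.36 without downstream 2009 replicates 7 and 8. For LYS1.2.3 and LYS.2.2 the r without them was 0.792 and 0.704. PXDN, a peroxidase name, averaged 0.205 CPM with an r of 0.014 and was at 0 in 1 library, and LYS.1.2 was at 0 in 8 libraries. The median sum of the list was 26.8 CPM in young, 49.6 CPM in middle-aged and 71 CPM in old animals. For ppt2 the r with this sum was -0.094.

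The r of CATL1 with the summed level of 43 ribosomal protein contigs was 0.713, with the 14 muscle contigs 0.429 and with the 2 cilia contigs 0.045. Without downstream 2009 replicates 7 and 8 these were 0.496, 0.229 and 0.009. With the sum of CUBN and LRP2 the r was 0.578, and 0.714 without those libraries, where LRP2 alone had 0.757. With the TMM factor of the library it was -0.453, and -0.143 without them, and with the total count 0.008. For ppt2 the r was 0.101 with the ribosomal, -0.126 with the muscle and -0.165 with the cilia contigs, -0.068 with CUBN and LRP2, -0.269 with the TMM factor and 0.112 with the total count.

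**Figure D4:**
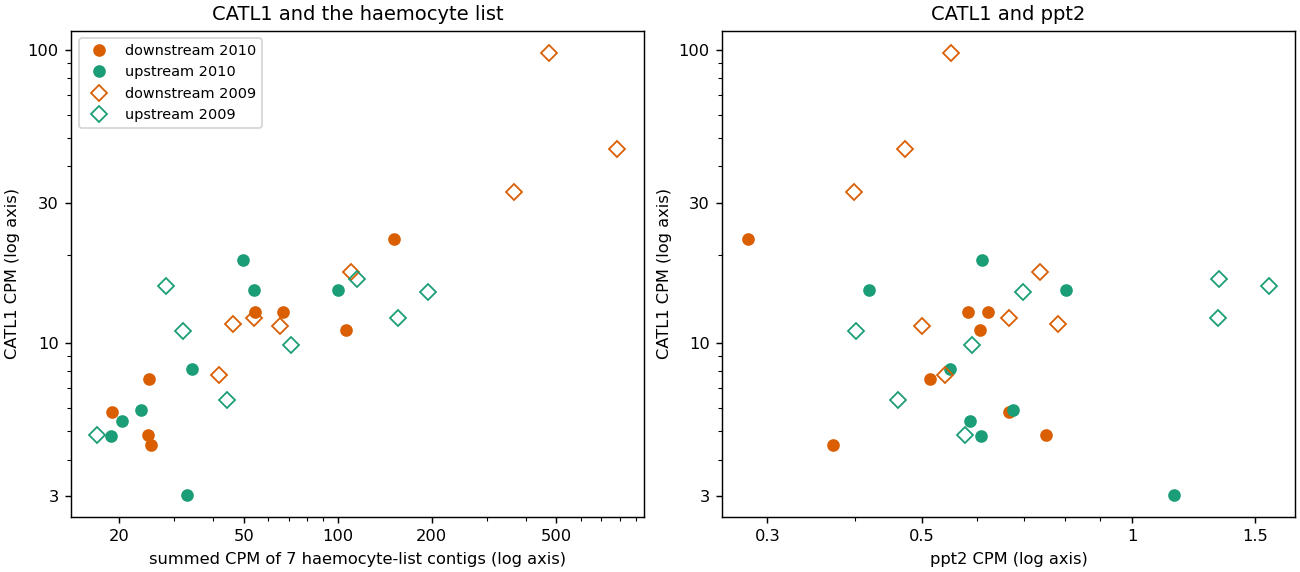
CPM of CATL1 against the summed CPM of the 7 haemocyte-list contigs (left) and against ppt2 (right), 1 point per animal with symbols for site and year, all axes logarithmic. The points rise together on the left (r = 0.859) and show no clear slope on the right (r = -0.127).

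Among the 1285 contigs with a gene or protein name and a mean of at least 1 CPM, those most like CATL1 over the 32 libraries were CIPKH (r = 0.932), S26A5 (0.932), Odc.4.6 (0.929), COLA1 (0.927) and Grn (0.924). CIPKH carries the name of a plant protein kinase, S26A5 that of an anion transporter family, Odc that of ornithine decarboxylase, the first enzyme of polyamine synthesis, and COLA1 that of a collagen. Grn is named for granulin, a secreted protein that is cut in lysosomes in mammals. Grn averaged 437 ± 312 CPM downstream and 460 ± 360 CPM upstream in 2010, and 1587 ± 1930 CPM downstream and 485 ± 207 CPM upstream in 2009 (SD, n = 8 each). Within groups the r of the 5 contigs was 0.91 to 0.946. Of all 44860 contigs at that level, named or not, 65 had a higher r than CIPKH. The most opposite names, looked up after the values were seen, were park2 (-0.833), prosc (-0.819) and txnrd2 (-0.811). They stand for parkin, which marks damaged mitochondria for breakdown in mammals, a protein that binds pyridoxal phosphate, and the mitochondrial thioredoxin reductase.

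The names most like ppt2 had lower values of r. Among the 5 closest were tmem11 (0.699), a mitochondrial inner membrane protein, st13 (0.686), a co-chaperone, and DHB12 (0.679), an enzyme of fatty acid elongation. Spearman's rho was lower for these, at 0.507, 0.577 and 0.482. Of all 44860 contigs, 12 had a higher r than tmem11. The most opposite name was pogk.5.8 (r = -0.669, rho = -0.453), named for a transposon-derived protein.

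The other lysosome-linked names were 30 contigs, all of which passed the filter on low counts. The lists also took in endosome and autophagy genes, 2 other thioesterases (lyplal1 and olah) and the cathepsin inhibitor csta. Not all 30 are therefore named for parts of the lysosome. The nearest relative of ppt2 by name, the thioesterase PPT1, had an r of 0.916 with CATL1 over the 32 libraries and of -0.191 with ppt2. With CATL1 it was 0.869 without downstream 2009 replicates 7 and 8. PPT1 averaged 1.90 ± 0.911 CPM downstream and 1.43 ± 0.884 CPM upstream in 2010, and 3.36 ± 2.83 CPM downstream and 2.01 ± 0.702 CPM upstream in 2009 (SD, n = 8 each). The cholesterol carrier npc2 had an r of 0.862 with CATL1, and Grn one of 0.924. Without downstream 2009 replicates 7 and 8 these were 0.757 and 0.866. CTL2A, named for a mouse protein that resembles the inhibitory propeptide of cathepsin L, had the lowest, -0.676, or -0.569 without those libraries. Of the 30 contigs, 12 had an r above 0.5 with CATL1 and 1 with ppt2, siae, a sialic acid esterase, at 0.56. Over all contigs 18.9% did so with CATL1 and 2.89% with ppt2. Without downstream 2009 replicates 7 and 8 the count was 7 of 30 with CATL1, against 11.6% of all contigs, and 5 of 30 with ppt2, against 4.72%.

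Between the sites over both years edgeR called 0 of the 30 contigs, as it called 0% of all contigs. An unadjusted p under 0.05 was found for 4 of the 30 and for 6429 of all 51264 contigs tested. The count was also 0 in DESeq2, in limma-voom and in each of the other alternatives. The smallest p belonged to CCZ1, part of the complex that activates the late endosome regulator Rab7, with a log2 difference of 0.47 ± 0.179 and an adjusted p of 0.326. CHM2A, a subunit of the machinery that cuts membranes in endosomes, had -0.22 ± 0.0938, and siae had -0.42 ± 0.179. PPT1 had 0.57 ± 0.29 and an adjusted p of 0.412.

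Between the years over both sites 14 of the 30 contigs were lower in 2010 by edgeR and 0 were higher, with 0 higher in DESeq2 and 1 in limma-voom. The lower ones made up 46.7%, against 18.3% of all contigs called as lower, and 15.7% of all contigs were called as higher. The lists were chosen with earlier results of these data known, so these shares are a description and no test of the set. The list added from the contig names, with 11 contigs, held 4 of the 14. The median log2 difference of the 30 was -0.65, against -0.009 for all contigs tested. Counted once per name, 12 of 26 names held a contig that fell. In the list of endosome, autophagy and targeting genes 5 of 7 contigs fell, which belong to 3 of its 4 names. The 10 contigs of smallest p over all lists were RRAGA, CHM2A, RAB5C.2.3, Rab5c, VPS28, ATG7, FUCO, RAB5C.3.3, CCZ1 and CLN6. With total counts in place of TMM factors 3 of the 30 were lower, where 33.5% of all contigs were called as higher and 4.76% as lower. The count was 13 without downstream 2009 replicates 7 and 8 (16.3% of all contigs lower), 15 with age class in the model (12.8%) and 10 with age class and lane (8.05%).

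RRAGA, a small GTPase that reports amino acids at the lysosome, averaged 15.1 ± 1.68 CPM downstream and 18.8 ± 2.18 CPM upstream in 2010. In 2009 it averaged 26.4 ± 5.06 CPM downstream and 24.6 ± 6.87 CPM upstream. Its year difference was -0.59 ± 0.104, with an adjusted p of 0.000103 by edgeR. CHM2A averaged 40.6 ± 3.23 CPM downstream and 52.8 ± 6.05 CPM upstream in 2010, and 65.5 ± 9.59 CPM downstream and 68.5 ± 14.8 CPM upstream in 2009. It fell by 0.53 on the log2 scale, with an adjusted p of 0.00011. With total counts in place of TMM factors neither was called by edgeR. The differences were then -0.13 for RRAGA (adjusted p = 0.36) and -0.11 for CHM2A (adjusted p = 0.506). These 2 contigs varied far less between animals than CATL1.

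Among the 4 contigs under the name of Rab5c, the GTPase of early endosomes, 3 fell: RAB5C.2.3 (-1.17 ± 0.213), Rab5c (-1.17 ± 0.221) and RAB5C.3.3 (-1.47 ± 0.374). RAB5C.1.3 had -0.68 ± 0.348 (adjusted p = 0.129). Reads may be shared between contigs of 1 name. VPS28, an endosomal sorting subunit, had -0.64 ± 0.131 and ATG7, an enzyme of autophagosome formation, -0.66 ± 0.136. The lysosomal fucosidase FUCO had -0.74 ± 0.168, CCZ1 -0.70 ± 0.18 and CLN6, linked to lysosomal storage disease in humans, -1.198 ± 0.326. The other 4 called contigs, named here after their values were seen, were npc2 (-1.21 ± 0.347), csta, a cystatin that inhibits cysteine proteases (-0.58 ± 0.161), olah (-0.40 ± 0.128) and siae (-0.52 ± 0.179).

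Most lysosomal hydrolases did not pass, and those given here were named after their values were seen. PPT1 had -0.66 ± 0.291 (adjusted p = 0.0789 by edgeR), the asparaginyl protease LGMN -1.203 ± 0.59 (0.114), the carboxypeptidase prcp -0.41 ± 0.233 (0.178) and HYAL1, a hyaluronidase, -0.75 ± 0.383 (0.129). CTL2A had a positive estimate, 0.37 ± 0.272 (0.311). Of the 7 contigs in the lists of proteases and glycosidases, PPT1 among them, FUCO was the only one that passed in this fit.

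**Figure D5:**
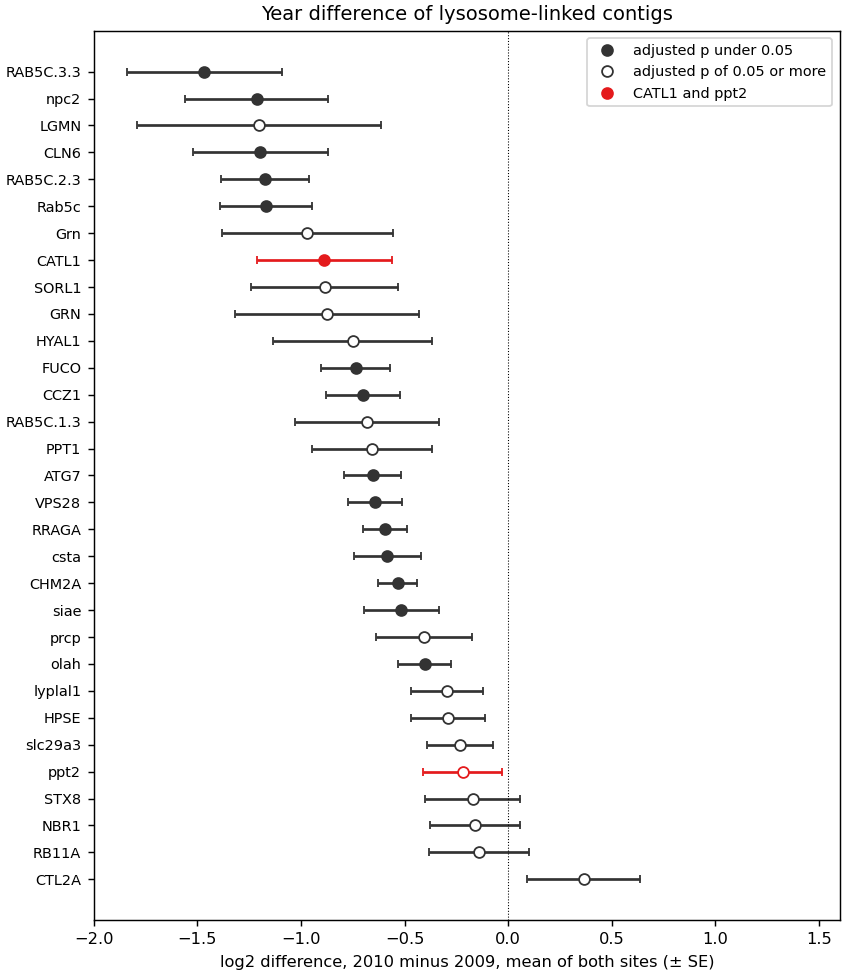
Log2 difference between 2010 and 2009, as the mean over both sites with its standard error, for all but 1 of the 30 lysosome-linked contigs and for CATL1 and ppt2 (red). Filled points have an adjusted p under 0.05; 14 of the 30 and CATL1 are filled, all left of 0, while ppt2 lies at -0.22 and is open.

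Between old and young animals edgeR called 1 of the 30 contigs as higher in old animals, against 2.07% of all contigs, and 0 as lower, against 0.382%. The one called was STX8, a membrane fusion protein of late endosomes (1.16 ± 0.281, adjusted p = 0.0338). An unadjusted p under 0.05 in edgeR was found for 8 of the 30 and for 12061 of all 51264 contigs tested, a similar share. DESeq2 called 1 as higher and 2 as lower, against 5.31% and 2.7% of all contigs, and limma-voom 4 as higher and 2 as lower, against 9.6% and 7.09%. For STX8 the adjusted p was 0.0635 with total counts alone and 0.348 without downstream 2010 replicate 5. It was 0.0521 to 0.0643 without upstream 2009 replicate 2, 6, 7 or 8 or downstream 2010 replicate 7 or 8. PPT1 (0.85 ± 0.448), npc2 (1.05 ± 0.533) and Grn (1.27 ± 0.638) had positive estimates that did not pass, with adjusted p of 0.242, 0.228 and 0.223. The estimate of prcp was -1.10 ± 0.329, with an adjusted p of 0.061. Between middle-aged and young animals 0 of the 30 were called by edgeR, DESeq2 and limma-voom. An unadjusted p under 0.05 in edgeR was found for 1 of the 30, against 5782 of all 51264 contigs tested. That contig was csta, at 0.50 ± 0.186 (adjusted p = 0.35). LGMN (1.38 ± 0.719, 0.46) and CTL2A (-0.58 ± 0.324, 0.478) had the next smallest p.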

How the data were processed

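Kidney RNA was sequenced from 32 animals, 1 library each, and the deposited table holds raw read counts of 51392 assembled contigs, whole numbers with no normalization by the authors. BWA 0.7.12 and SAMtools 1.1 are listed in the submitters' processing notes, and the assembler, the annotation and the counting rule are not given in the sources used here. Groups, age classes and lanes were taken from the labels, and each animal is a separate sample.

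Here contigs were filtered with filterByExpr (at least 10 counts, 15 in total), scaled by TMM and fitted with edgeR's robust quasi-likelihood test (edgeR 4.0.16, R 4.3.3), with 4 group means or with age class added, and p-values were adjusted by Benjamini-Hochberg over all 51264 contigs tested, with a threshold of 0.05. Standard errors were taken from the estimate and its F value, and 95% intervals from them with the degrees of freedom of the test. Correlations used log2 CPM with a prior count of 2. Alternatives were RLE factors, total counts, other filters, DESeq2 1.42.0, limma-voom 3.58.1, lane or age terms, and leaving out libraries. The fit with age class and lane together was chosen after seeing the data. The fits were also run on simulated counts, drawn for each contig on its own. No effects shared by many contigs of a library were simulated, so that run cannot vouch for the calls given here.

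Members and lists were chosen with earlier results of these data known, and 1 further list (RRAGA, VPS28, CCZ1, Grn, siae and others) was added from the contig names. Named list contigs were those called, up to 10 per comparison by p, or otherwise the 3 of smallest p. Likeness named the 5 closest contigs. No contig sequence or length was used here. A few contigs of the lists and of the likeness ranking are not reported here by name.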

Additional observations from a re-analysis of the deposited data

Results flagged for a closer look

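CATL1 in downstream 2010 replicate 5, an old animal, was 22.6 CPM, and its gap to the next animal made up 0.542 of the range of its group, above Dixon's critical value of 0.526 for 8 samples. CATL1 in downstream 2009 replicate 7, also old, was 97.1 CPM, and its gap to the next animal made up 0.573 of the range. On log2 CPM the same shares were 0.353 and 0.297, below the critical value, so neither animal stood apart on that scale. Chance flags about 1 in 20 groups of normally distributed values, and CPM is skewed. No ppt2 value passed on either scale. The same animal of 2010 had the lowest ppt2 level, 0.282 CPM.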

How the results depend on the processing

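CATL1 between the years (-0.89) was no longer called with total counts (-0.28), without downstream 2009 replicates 7 and 8 (-0.44), with age class (-0.65) or with age class and lane (-0.55). Leaving out each library gave -1.02 to -0.61 (adjusted p 0.0136 to 0.107 by edgeR). For ppt2 it turned to 0.21 with total counts. CATL1 between the sites in 2009 was 0.41 in limma-voom. CATL1 between old and young animals passed in limma-voom (1.095). For ppt2 between middle-aged and young animals, leaving out a library gave -0.15 to 0.10, with 0.10 and 0.01 above 0. The site difference of siae was 0.051 without the old animals.

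The contigs called between the sites over both years were 227 in DESeq2 and 0 in edgeR, where 6429 had an unadjusted p under 0.05. Between the years they were 8806 with age class and lane and 17412 as reported. Lysosome-linked contigs called as higher were 1 in limma-voom, and those called as lower 3 with total counts. There the year differences of all 10 named contigs stayed below 0, but most were no longer called. RRAGA, CHM2A, VPS28, ATG7, FUCO, CCZ1 and CLN6 had an adjusted p of 0.0957 (CLN6) to 0.506 (CHM2A) by edgeR. With age class and lane, RAB5C.3.3 (adjusted p = 0.125), CCZ1 (0.106) and CLN6 (0.22) were not called by edgeR. Between old and young animals 1258 contigs were called as reported, 699 with total counts, 4104 in DESeq2, 8554 in limma-voom, 4335 with lane, 3680 without downstream 2009 replicates 7 and 8, and 7177 without that group. Leaving out a library gave 0 (downstream 2010 replicate 5) to 2580 (downstream 2009 replicate 5). Lysosome-linked contigs higher in old animals were 0 with total counts, 4 in limma-voom and 0 to 1 on leaving out a library. Lower ones were 2 in DESeq2, 2 in limma-voom, 1 without downstream 2009 replicates 7 and 8, 2 without that group, and 0 to 1 on leaving out a library. Between middle-aged and young animals 2 contigs were called as reported, 0 with total counts, 533 in DESeq2, 481 in limma-voom, 0 with lane, and 1 to 20 on leaving out a library. The cause of these changes was not tested.

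Of the comparisons of the main results with an alternative, 1182 kept direction and side of the threshold or moved within the spread. Counts of called contigs were judged by their ratio to the reported count. Of the others 56 moved, 14 became weaker, 3 reversed and 1 became stronger. Those that moved were counts of called contigs, apart from the 2009 site difference of CATL1 in limma-voom. For differences of the pair that were not tested, the spread is the SD between animals within groups, 0.934 on the log2 scale for CATL1. By that wide measure a change of its 2009 site difference from 1.37 to 0.46 counts as within the spread. So does a change of sign of its 2010 site difference, from 0.09 to -0.18. ppt2 was not tested where at least 1 CPM was asked for. Its 20 to 270 reads per library limit its precision. No paired analysis was possible because the labels hold no replicate numbers, and those used here only number the animals within a group.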
